A study of Mus musculus with 4 samples.

Results

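The genes described here are those that mark resting microglia, the resident macrophages of the brain, together with the 3 genes for the chains of C1q, the protein that starts the classical complement pathway. They were chosen by name: 9 symbols were listed, and a gene was kept where the array annotation ties at least 1 probe to that symbol alone. This left 8 of 19087 genes, namely Cx3cr1, Tmem119, P2ry12, Trem2, Ptprc, C1qa, C1qb and C1qc, measured by 22 spots. Csf1r, the receptor for the growth factors that microglia need to survive, had no such probe and is not analysed here. The rule itself uses no expression value.

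RNA came from the globus pallidus, a nucleus of GABAergic output neurons in the basal ganglia, of male C57BL6 mice that went through a conditioned place preference protocol. The score of an animal is the time it spends, after training, in the compartment where it was given the drug. The cocaine mice had a low score and received 15 mg/kg of cocaine on days 2, 3 and 4, and the saline mice received saline on the same days. Each of 4 Agilent two-colour arrays set a cocaine mouse against a saline mouse. The cocaine sample carried the Cy5 dye on arrays 1 and 3, and the Cy3 dye on the other arrays, 2 and 4. Low score and cocaine go together on every array and cannot be told apart. The animal codes in the labels differ for every channel, so an array was counted as 1 biological replicate.

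Microglia are kept in place and at rest by signals from neighbouring cells: neurons present the chemokine Cx3cl1 to the receptor Cx3cr1, and Csf1 and Il34 act on the Csf1 receptor. P2ry12 senses nucleotides that leak from active or damaged cells and steers microglial processes towards them, and Trem2 senses lipids and cell debris and signals through its adaptor Tyrobp. In the brain C1q is made mostly by microglia. It is built from A, B and C chains, binds to synapses and debris, and leads through C4 and C2 to cleavage of C3.

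Every value below is a log2 ratio between the channels of an array, and a ratio above 0 is higher in cocaine mice if the columns run as cocaine over saline. That direction is likely, because the design text names the cocaine mice before the saline mice, but the values do not settle it, and every sign reverses if the columns run the other way. Arrays of opposite dye orientation correlated between -0.833 and -0.961 over 45018 spots, and those of like orientation at 0.901 and 0.87, so the columns were taken to run in 1 treatment direction. The deposited ratios carry a strong dye bias. For C1qc they were 1.30 and 1.54 with cocaine in Cy5 (arrays 1 and 3), against -1.19 and -1.46 with cocaine in Cy3 (arrays 2 and 4). A loess step removed the part of each array that follows the dye bias, and the values that follow are normalized in this way unless called deposited. A ratio says nothing of how abundant a transcript is, so no gene's level is set against another's. In whole tissue, fewer microglia and less RNA per microglial cell cannot be told apart.

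**Figure D1:**
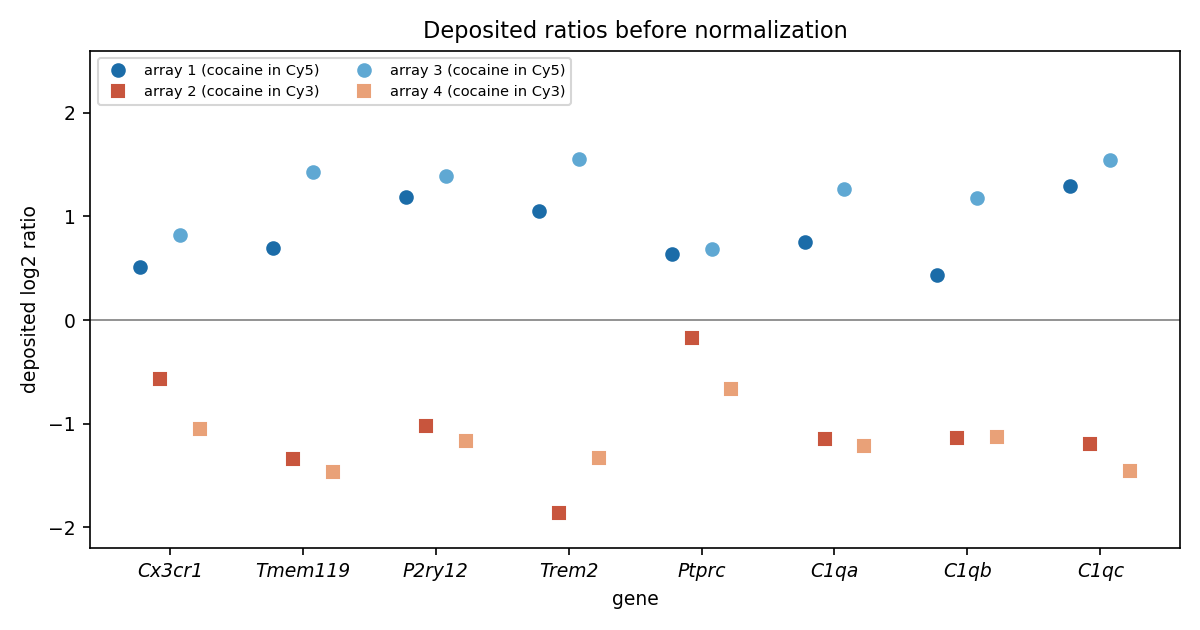
Deposited log2 ratio (y axis) of each of the 8 genes (x axis) on the 4 arrays, before normalization. Circles are arrays with cocaine in Cy5 and squares are arrays with cocaine in Cy3. All circles lie above 0 and all squares below it, from 1.55 for Trem2 on array 3 to -1.86 for Trem2 on array 2, which is the dye bias that the normalization takes out.

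All 8 genes had at least 1 spot above the limit set for dim spots, which was reached by 76.6% of all genes. The limit is a stand-in, set on the averaged dye bias because no intensities were used here. A further 20 microglia-enriched genes were measured, among them Aif1, P2ry13, Siglech and Fcrls, and 20 of 20 were above it. Of the 12 lymphocyte markers only 5 were, and 13 of 13 markers of pallidal neurons were. Markers of astrocytes (11 of 11), oligodendrocytes (11 of 11) and endothelial and mural cells (14 of 14) were above it as well. The limit therefore does not tell these cell types apart.

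None of the 8 genes passed the test for a difference between cocaine and saline mice. The mean ratio was below 0 for 5 genes (Tmem119, C1qb, Trem2, C1qa and Cx3cr1) and above 0 for 3 (Ptprc, P2ry12 and C1qc), against 52% of all genes below 0 and 48% above. Means ran from -0.17 for Tmem119 to 0.12 for Ptprc, and the median of the 8 was -0.073, against -0.0028 over all genes. By limma with Benjamini-Hochberg adjustment over 30452 features, 0 features had an adjusted p under 0.05 (0% called), and the adjusted p was 0.999 for each of the 8 genes. At an unadjusted p under 0.05 there were 0 of the 8, against 1.52% of all genes. The smallest unadjusted p of the 8 was 0.090, for Ptprc. The moderated test rests on 4 arrays and 5.21 degrees of freedom, so a missed threshold does not show that a gene did not differ, and the intervals below give the sizes the data allow.

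**Figure D2:**
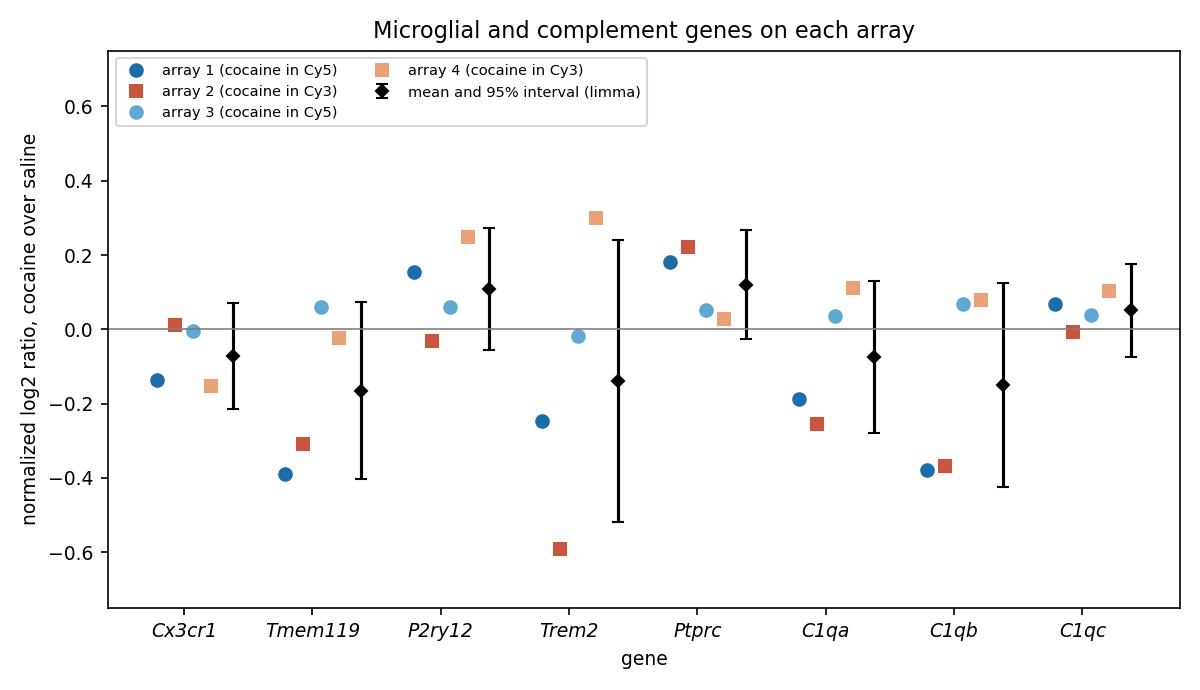
Normalized log2 ratio of cocaine over saline (y axis) for the 8 genes (x axis). Circles and squares are single arrays by dye orientation, and black diamonds are the mean of 4 arrays with the 95% interval of limma. Every interval includes 0, and Trem2 has the widest spread, from -0.59 on array 2 to 0.30 on array 4.

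Cx3cr1 is the receptor through which microglia read the neuronal chemokine Cx3cl1. Its ratio was -0.14, 0.010, -0.0055 and -0.15 on arrays 1 to 4. Arrays 1 and 4 were thus low and the other arrays near 0, and the mean was -0.071 (SE 0.056, n = 4 arrays, 95% interval -0.21 to 0.071). Both spots of the gene were above the limit and agreed in their mean, at -0.074 and -0.069, but not on single arrays. On array 2 they gave 0.18 and -0.16, and on array 4 they gave -0.33 and 0.023, so the flat average on array 2 hides opposite values. Cx3cl1 itself, measured by 2 spots, had a mean of 0.027 (SE 0.062), below 0 on arrays 1 and 4 and above 0 on arrays 2 and 3.

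P2ry12, the purinergic receptor that guides microglial processes, stood at 0.15, -0.030, 0.061 and 0.25 on arrays 1 to 4. It was above 0 on 3 of 4 arrays, with array 4 the highest. Its mean of 0.11 (SE 0.064, n = 4 arrays, 95% interval -0.055 to 0.27) is 1.08-fold. The related nucleotide receptor gene P2ry13 had 0.057, -0.013, 0.011 and 0.094 on the same arrays, also below 0 on array 2 alone, with a mean of 0.037 (SE 0.049). P2ry13 was chosen after its values were seen.

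Trem2, the lipid-sensing receptor, was the most uneven of the 8 genes. It stood at -0.25, -0.59, -0.018 and 0.30 on arrays 1 to 4. Array 2 lay far below array 4, and the mean of -0.14 (SE 0.15, n = 4 arrays, 95% interval -0.52 to 0.24) had a larger error than 98.7% of the 14618 genes above the limit. The 2 spots of Trem2 followed each other, with -0.55 and -0.63 on array 2, and 0.38 and 0.22 on array 4. On array 1 they parted, at -0.11 and -0.39, and their means over the arrays were -0.078 and -0.20. Each spot nevertheless spread more between arrays than the 2 spots differed on any array. In the fit without array 2, array 4 stands alone in its dye orientation and weighs as much as both other arrays. The Trem2 mean turned to 0.11 there, which reflects that weighting as well as the loss of array 2. In the fit without array 4, array 2 was weighted up in the same way and the mean was -0.25. Tyrobp, the adaptor that carries the Trem2 signal, stood at 0.0025, -0.19, -0.043 and 0.14 on arrays 1 to 4 (mean -0.021, SE 0.069). It was lowest on array 2 and highest on array 4, but so were Mag and Hba-a1 of other cell types. The order is therefore not particular to Trem2 and Tyrobp. In the fit without array 2, with array 4 again weighted up, the Tyrobp mean turned to 0.079.

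Tmem119, a membrane protein used to tell microglia from other macrophages, had the lowest mean of the 8. It stood at -0.39, -0.31, 0.059 and -0.024 on arrays 1 to 4, low on the first pair and close to 0 on the other. The mean was -0.17 (SE 0.094, n = 4 arrays, 95% interval -0.40 to 0.073), which is 1.12-fold. Without single arrays it lay between -0.28 (without array 3) and -0.053 (without array 1). The gene had 1 spot, and no other spot can check it.

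Ptprc encodes CD45, a phosphatase on microglia and on all white blood cells, and it was the only member with the same sign on every array. It stood at 0.18, 0.22, 0.052 and 0.029 on arrays 1 to 4, with a mean of 0.12 (SE 0.058, n = 4 arrays, 95% interval -0.027 to 0.27). That 1 of 8 genes had the same sign throughout compares with 13% of the genes above the limit. These values average 13 spots of unlike averaged dye bias, and 3 of the spots were not above the limit. The other 10 agreed closely, with means of 0.24 ± 0.036, 0.27 ± 0.032, 0.065 ± 0.034 and 0.066 ± 0.047 on arrays 1 to 4 (SD between 10 spots). Arrays 1 and 2 therefore stood above arrays 3 and 4 by more than the spots differed on any array. The spots share the RNA of each array and add no replicates. With the 10 spots alone the mean was 0.16 (unadjusted p 0.074, adjusted p 0.9999 by limma).

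**Figure D3:**
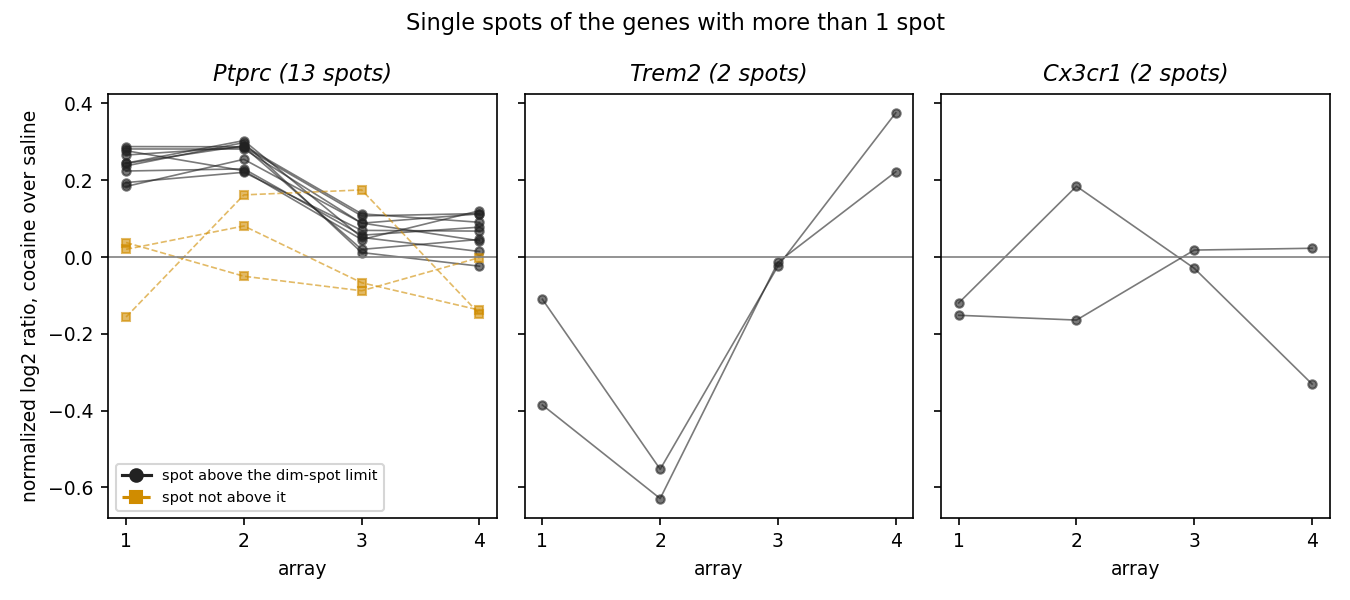
Normalized log2 ratio (y axis) of each single spot of Ptprc, Trem2 and Cx3cr1 on the 4 arrays (x axis), with a line joining the values of 1 spot. Dark circles are spots above the limit and orange squares the 3 Ptprc spots that were not. The 10 Ptprc spots above the limit run together, the 2 Trem2 spots follow each other but part on array 1, and the 2 Cx3cr1 spots part on arrays 2 and 4.

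CD45 is shared with blood cells, so the markers of those cells are given here. Of 10 neutrophil and red cell markers 5 were above the limit. By limma 2 of the 10, S100a9 and Hba-a1, had an unadjusted p under 0.05, against 1.52% of all genes. S100a9, a calcium-binding protein of neutrophils, stood at 0.81, 0.59, -0.016 and 0.22 on arrays 1 to 4 (mean 0.40, SE 0.15, unadjusted p 0.040, adjusted p 0.999), high on arrays 1 and 2 as Ptprc was. Its partner S100a8 was not above the limit. Mpo, a granule enzyme of neutrophils, had 0.10, 0.023, -0.028 and 0.054. Hba-a1, a globin gene of red cells, had -0.28, -0.65, -0.34 and 0.030 (mean -0.31, SE 0.11, unadjusted p 0.042, adjusted p 0.999). S100a8 and Mpo were chosen after their values were seen. The median over the 10 markers was 0.023, 0.028, -0.0085 and 0.061 on arrays 1 to 4. Of 12 lymphocyte markers 5 were higher and 7 lower, against 48% of all genes higher and 52% lower. Of the 5 above the limit 3 were higher and 2 lower (median 0.030). Both with the smallest p, Gzma and Cd79a, were not above the limit, so no ratio is given for them. The part of blood cells in the Ptprc ratio was not tested.

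Of the C1q genes, C1qa and C1qb shared a pattern over the arrays that C1qc did not. C1qa, for the A chain, stood at -0.19, -0.26, 0.035 and 0.11 on arrays 1 to 4 (mean -0.074, SE 0.081, n = 4 arrays, 95% interval -0.28 to 0.13). C1qb, for the B chain, stood at -0.38, -0.37, 0.069 and 0.078 (mean -0.15, SE 0.11, 95% interval -0.42 to 0.12). Both were low on arrays 1 and 2 and slightly above 0 on arrays 3 and 4. Arrays 1 and 2 lay below arrays 3 and 4 in 31.2% of genes above the limit. C1qc, for the C chain, stood at 0.068, -0.0074, 0.040 and 0.10 (mean 0.051, SE 0.049, 95% interval -0.073 to 0.18), with no low array. Within arrays, C1qc lay above C1qb by 0.45 on array 1 and 0.36 on array 2, and the genes differed by -0.029 and 0.026 on arrays 3 and 4. C1qc lay above C1qa by 0.26 and 0.25 on arrays 1 and 2. C1qb minus C1qa was -0.19 and -0.11 on those arrays, so C1qa and C1qb differed as well. The chains join in 1 protein and their genes lie side by side in the RefSeq annotation (GRCm38.p6), in the order C1qb, C1qc and C1qa with no other coding gene between them. Each was measured by 1 spot, so the parting of C1qc from its neighbours rests on single spots and was not tested. In the fit without array 2, where array 4 weighs as much as arrays 1 and 3 together, the C1qa mean turned to 0.017. The C1qb mean lay between -0.26 and -0.040 without single arrays.

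Promoter sequence is shown for 4 of the genes because their array values parted: C1qb and Trem2 were low on arrays 1 and 2, and C1qc and P2ry12 were not. The RefSeq promoter table (GRCm38.p6) held 6 of the 8 genes, without C1qa and Tmem119. Each line gives 250 bases that end just before the annotated start of the gene, 5′ to 3′ on the gene's strand, with GAGGAA or its complement TTCCTC in capitals. This is 1 form of the core bound by PU.1 (Spi1), the transcription factor on which microglia depend. Other forms were not searched. The windows are chr4:136886201-136886450 on the minus strand for C1qb, chr4:136892915-136893164 on the minus strand for C1qc, chr17:48346151-48346400 on the plus strand for Trem2 and chr3:59262986-59263235 on the minus strand for P2ry12.
C1qb: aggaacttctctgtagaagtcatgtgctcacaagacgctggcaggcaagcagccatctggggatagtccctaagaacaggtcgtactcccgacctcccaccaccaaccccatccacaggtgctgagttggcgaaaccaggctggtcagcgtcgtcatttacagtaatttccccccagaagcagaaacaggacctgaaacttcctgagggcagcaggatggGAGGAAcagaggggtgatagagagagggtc
C1qc: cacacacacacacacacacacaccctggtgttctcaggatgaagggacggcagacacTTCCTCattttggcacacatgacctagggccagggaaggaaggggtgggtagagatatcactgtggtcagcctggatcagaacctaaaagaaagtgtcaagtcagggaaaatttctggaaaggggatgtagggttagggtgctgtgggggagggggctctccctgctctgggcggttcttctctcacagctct
Trem2: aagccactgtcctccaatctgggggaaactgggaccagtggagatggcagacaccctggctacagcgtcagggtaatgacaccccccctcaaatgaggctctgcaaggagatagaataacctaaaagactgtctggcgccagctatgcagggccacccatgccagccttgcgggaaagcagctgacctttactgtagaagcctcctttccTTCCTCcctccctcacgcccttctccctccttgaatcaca
P2ry12: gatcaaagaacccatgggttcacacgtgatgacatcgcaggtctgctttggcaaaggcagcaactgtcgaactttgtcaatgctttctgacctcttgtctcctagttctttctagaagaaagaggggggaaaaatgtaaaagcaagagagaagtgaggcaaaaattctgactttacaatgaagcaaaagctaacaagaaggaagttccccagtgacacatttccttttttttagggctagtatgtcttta
This form of the core occurred 1 time each in C1qb, C1qc and Trem2, starting 30, 193 and 40 bases before the gene's start. It occurred 0 times in P2ry12, which does not cover other forms. On either strand it is found in 23.3% of 32851 promoter windows of this length, so a match is common. Among the genes whose windows are not shown, Ptprc held it 1 time in 1 window, 158 bases before that start, and 0 times in the other. Cx3cr1 held it 0 times. The 4 genes shown were picked by their array values, so a link between the motif and the ratios was not tested. The AP-1 motif TGANTCA, searched on both strands, occurred in Trem2 alone of the 4 and in 6.75% of all windows. These are matches of letters, and nothing here shows binding.

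The division between arrays ran through most of the 8 genes. In C1qa, C1qb, Tmem119 and Trem2 arrays 1 and 2 both lay below arrays 3 and 4, and in Ptprc both lay above, which makes 5 of 8. Among the 14618 genes above the limit 54.1% were divided in this way in either direction, 31.2% with arrays 1 and 2 below and 22.9% above, so the division itself is not a result about these genes. The loess also ties the 4 values of a gene together, since it brings the sum over arrays 1 and 3 close to the sum over arrays 2 and 4. The median of the 8 genes was -0.16, -0.14, 0.046 and 0.091 on arrays 1 to 4, and that of 20 other microglia-enriched genes was -0.066, -0.049, 0.047 and 0.038. The medians of all genes on the same arrays were -0.0084, -0.012, 0.0055 and 0.0082, which the loess holds near 0 by centring each array.

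The error of a mean ratio was larger in 5 of the 8 genes than the median error of genes above the limit, 0.060. C1qc had the smallest, 0.049, followed by Cx3cr1, Ptprc and P2ry12, and Trem2 the largest. The order of the 8 means ran from Tmem119 through C1qb, Trem2, C1qa, Cx3cr1, C1qc and P2ry12 to Ptprc. The widest gap between neighbours, 0.12 between C1qc and Cx3cr1, was larger than their combined SE of 0.074. Each of the other gaps was smaller than the combined SE of its pair. The combined SE takes the genes of a pair as independent, although they share the same arrays. The widest gap was found after sorting, so a break between the genes was not tested.

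**Figure D4:**
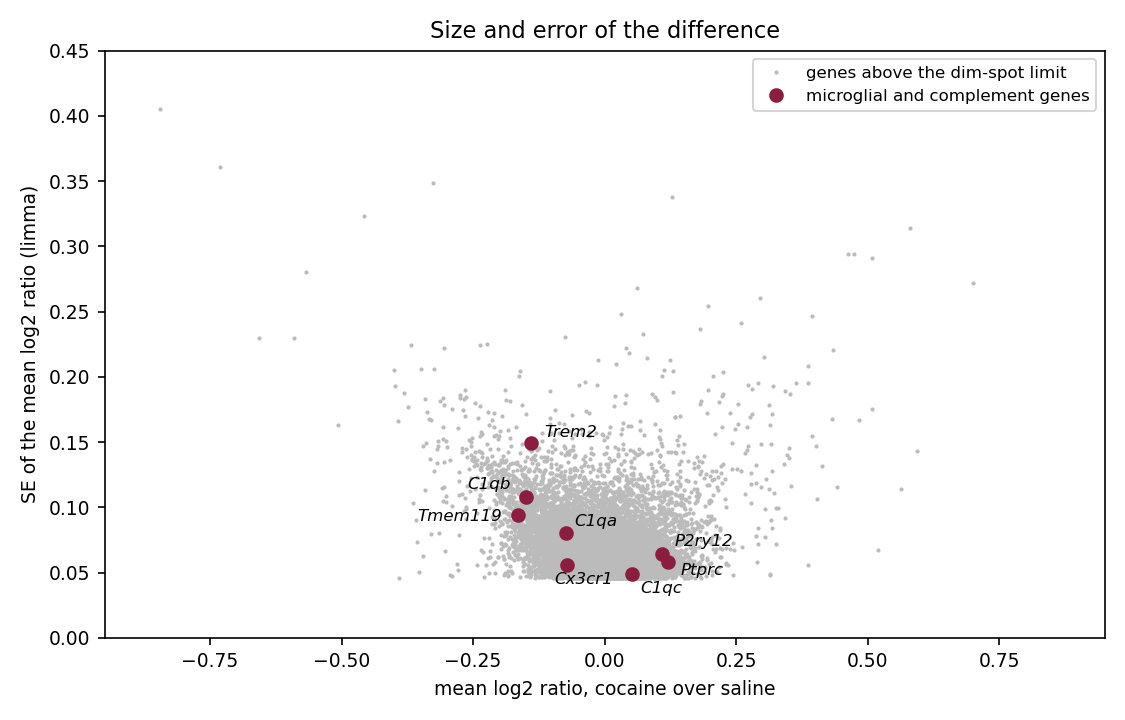
SE of the mean log2 ratio (y axis) against the mean log2 ratio of cocaine over saline (x axis) for the 14618 genes above the limit (grey points), with the 8 microglial and complement genes in red. The 8 lie within the cloud, with Trem2 (SE 0.15) and C1qb (SE 0.11) towards its upper part.

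Other genes of microglia were near balance. Of 20 measured microglia-enriched genes 10 were higher and 10 lower, 0 had an unadjusted p under 0.05 and 0 passed by limma, with a median of -0.0027. Mertk, a receptor for the uptake of dying cells, had -0.21, 0.043, -0.13 and -0.36 on arrays 1 to 4 (mean -0.17, SE 0.079). Ctss, a lysosomal protease of microglia, had 0.18, 0.21, 0.042 and -0.032 (mean 0.098, SE 0.062), and Itgam, a subunit of complement receptor 3, had a mean of 0.079 (SE 0.066). Of 8 myeloid transcription factors 5 were higher and 3 lower (median 0.0066), with Mef2c at 0.17 (SE 0.10) and Ikzf1 at 0.030 (SE 0.050), and Mef2c is also expressed in neurons. Spi1, the gene for PU.1, was not above the limit and is named here because of the promoter motif.

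Of 13 ligands and adaptors of the receptors 7 were higher and 6 lower (median 0.011). Csf1, the growth factor of microglia, averaged 10 spots at 0.011 (SE 0.065), and Il34, the neuronal ligand of the same receptor, had a mean of -0.094 (SE 0.091). Il34 stood at -0.31, -0.23, 0.12 and 0.047 on arrays 1 to 4, the division seen in C1qb. Its mean turned to 0.012 in the fit without array 1, where array 3 weighs as much as arrays 2 and 4 together. Apoe, a lipid carrier that binds Trem2, had -0.41, -0.50, -0.016 and -0.035 (mean -0.24, SE 0.10, unadjusted p 0.068, adjusted p 0.999), below 0 on 4 of 4 arrays. Its mean was -0.042 without array 2 and -0.43 without array 3, so its size rests on which arrays are kept. Apoe is made in larger part by astrocytes. Fcer1g, an adaptor of Fc receptors, had a mean of 0.088 (SE 0.056).

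None of the other complement genes measured passed the test. Of 11 complement components 7 were lower and 4 higher (median -0.034), against 52% of all genes lower, and 1 had an unadjusted p under 0.05, against 1.52% of all genes. That gene was C4b, which C1q activates through its proteases. It stood at -0.39, -0.18, -0.041 and -0.25 on arrays 1 to 4, below 0 on each (mean -0.21, SE 0.072, unadjusted p 0.029, adjusted p 0.999 by limma). C2, which joins C4b in the enzyme that cleaves C3, stood at -0.34, -0.33, -0.012 and -0.0065 (mean -0.17, SE 0.085). Both genes are also made outside microglia. C3 had no probe tied to it alone. Of 16 complement receptors and regulators 10 were lower and 6 higher (median -0.024), and of the 13 above the limit 7 were lower and 6 higher. Sez6l2, a neuronal complement regulator, had a mean of -0.083 (SE 0.051), and Itgb2, the partner of Itgam, 0.031 (SE 0.060). Cd46 had the smallest p of that list but was not above the limit, so no ratio is given.

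Of 14 measured genes that microglia raise on activation 5 were higher and 9 lower (median -0.0040), against 52% of all genes lower. A single one had an unadjusted p under 0.05, against 1.52% of all genes, and 0 passed by limma. Ccl6, a chemokine of myeloid cells, stood at 0.16, 0.15, 0.30 and 0.32 on arrays 1 to 4 (mean 0.23, SE 0.056, unadjusted p 0.0087, adjusted p 0.999), above 0 on each and with no low array. Cd63, a lysosomal membrane protein, had a mean of -0.12 (SE 0.070). Of 18 inflammatory mediators 10 were higher and 8 lower (median 0.012), against 48% of all genes higher. Of the 14 above the limit 6 were higher and 8 lower (median -0.016). A single mediator, Cxcl10, had an unadjusted p under 0.05 by limma. Cxcl10, an interferon-induced chemokine, had the largest mean of these at 0.59 (SE 0.14, unadjusted p 0.0081, adjusted p 0.999 by limma). Nfkbia, an inhibitor of NF-κB, had -0.18 (SE 0.071).

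Macrophages at the brain's borders share much of the microglial programme. Their markers and those of monocytes were higher in 12 of 17 genes (median 0.033), and 0 had an unadjusted p under 0.05. Cd163, a scavenger receptor of perivascular macrophages, stood at 0.22, 0.17, 0.056 and 0.092 (mean 0.13, SE 0.054), above 0 on 4 arrays. Pf4 had 0.37, 0.043, -0.038 and 0.31 (mean 0.17, SE 0.089). Over the 17 genes the median reached 0.092 and 0.071 on arrays 1 and 4 but -0.028 on each of arrays 2 and 3, an order unlike that of the 8 microglial and complement genes. The part of these cells in the ratios of shared genes was not tested.

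Markers of the other cells in the tissue give the setting of these ratios. Oligodendrocyte markers were lower in 10 of 11 genes (median -0.074), close to the median of the 8, with Mal at -0.11 (SE 0.048) and Mag at -0.32 (SE 0.15). Mag stood at -0.47, -0.74, -0.17 and 0.11 on arrays 1 to 4, and its mean was -0.095 without array 2. Astrocyte markers were lower in 8 of 11 (median -0.042). Fgfr3, a growth factor receptor, had a mean of -0.21 (SE 0.098), and the transcription factor Sox9 one of 0.15 (SE 0.059). Endothelial and mural markers were higher in 9 of 14 (median 0.016), with Abcc9 at 0.15 (SE 0.064) and Kcnj8 at 0.11 (SE 0.049). Pallidal neuron markers were lower in 9 of 13 (median -0.013), with Vamp1 at -0.15 (SE 0.068) and Npas1 at -0.12 (SE 0.059). No gene of these lists passed the test, and whether a shift in cell makeup between the dissected samples bears on the microglial ratios was not tested.

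**Figure D5:**
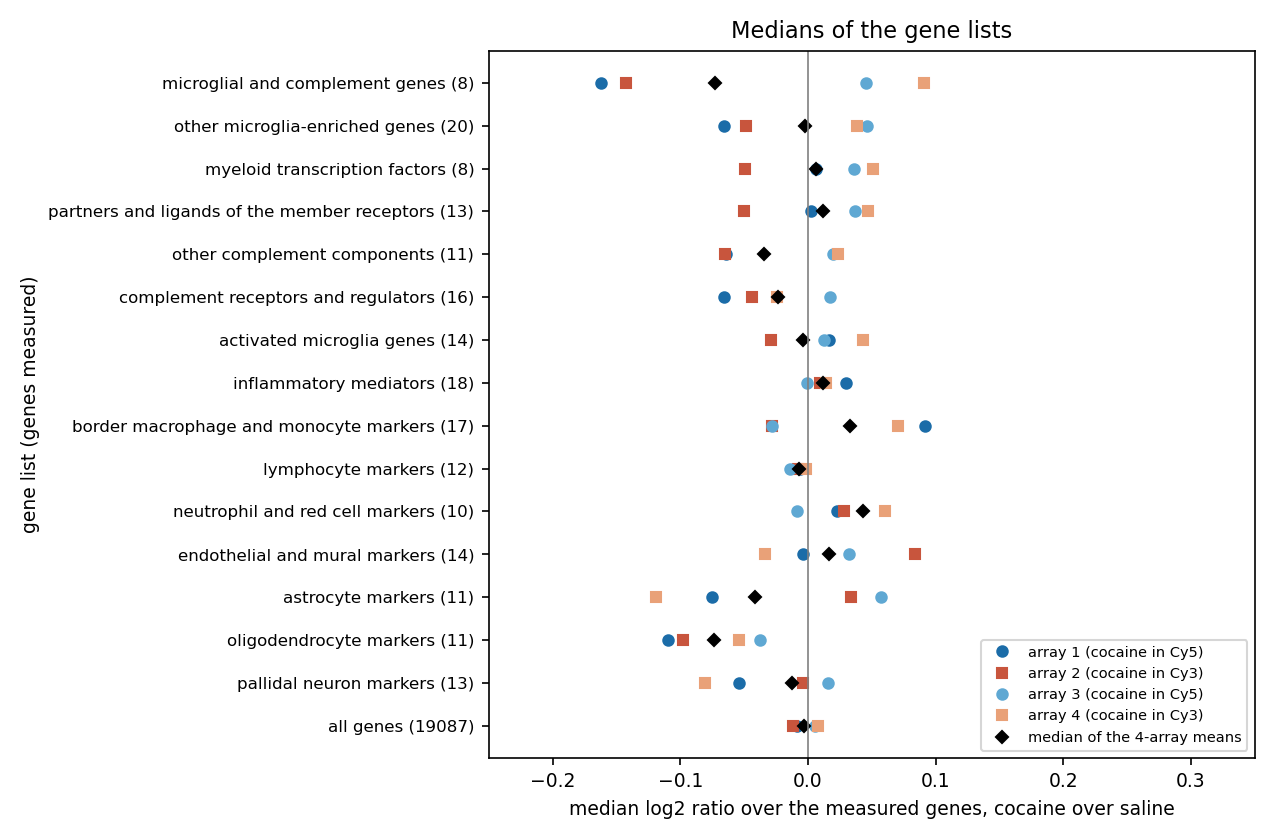
Median log2 ratio of cocaine over saline (x axis) over the measured genes of each list (y axis, number of genes in brackets). Coloured symbols are single arrays by dye orientation and black diamonds the median of the means of 4 arrays. The 8 microglial and complement genes reach -0.16 and -0.14 on the first pair of arrays, against 0.046 and 0.091 on arrays 3 and 4. The medians of all genes lie between -0.012 and 0.0082, held near 0 by the loess, which centres each array.

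The genes nearest to the median of the 8 over the 4 arrays were Akap8l, Srprb, Fam210b, Epx and Ier5l, with root-mean-square differences of 0.011 to 0.017 on the log2 scale among 14610 genes above the limit. Akap8l, the nearest, stood at -0.16, -0.16, 0.050 and 0.076. The median gene lay 0.15 away. With only 4 values per gene, close matches are to be found for most profiles. Among the 8 genes themselves C1qa lay nearest to their median (0.059) and Trem2 and Ptprc farthest (0.25 each).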

How the data were processed

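For each of 4 arrays, 45220 log2 ratios were deposited by the authors, 1 for every spot. Per the labels, 75 ng of total RNA were amplified and labelled with Cy3 or Cy5, and Agilent Feature Extraction was used, per the submitters' processing notes, which give no version. The deposited values of array 3 were log2 ratios of whole numbers in 98.7% of 3000 sampled spots (tolerance 2e-13), against 0.13% after a small random shift. No normalization was visible, and background subtraction and the genome build are not given in the sources used here.

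Spots at 0 on all arrays (202) were left out. A loess curve (span 0.3) against the dye bias, averaged over the 2 orientations, was subtracted from each array. Spots of a gene were averaged, and 30452 features were tested with limma 3.58.1 in R 4.3.3 (treatment and dye terms, eBayes), with Benjamini-Hochberg adjustment and a threshold of 0.05. The fit was run on simulated single spots with known changes, as a check of mean estimates alone. Their noise was independent and smaller than the spread of Trem2 between arrays (SD 0.38), so the check does not cover such genes. The number of arrays limits the precision. The limit for dim spots was an averaged dye bias of 0.017, which is 3 SDs above the mode of dim spots.

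Symbols came from the platform annotation: 33653 probes had 1 symbol, 56 several and 11511 none. By Entrez identifier 33517 matched RefSeq and 0 symbols differed. Of 204 symbols in 14 context lists 188 were measured, and C1s was found as C1s1. The genes named are the 8 members, the ligands and adaptors, the 2 genes of each list with the smallest p and the 5 genes nearest to the members' median, unless a sentence says otherwise. The members and lists were chosen with earlier results of these data known. Alternatives were no normalization, median centring, a span of 0.6, no dye term, a robust prior, spots above the limit alone, single spots, the spot with the largest dye bias, and leaving out each array.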

Additional observations from a re-analysis of the deposited data

How the results depend on the processing

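The 8 microglial and complement genes had 0 calls by limma with 4 arrays and under every alternative run, single replicates left out included. With median centring in place of loess there were 18 calls over all features and 1 over the context genes, which was Cxcl10. Both counts were 0 without single replicates, and 0 under the other alternatives run. Without single replicates the C1qa mean ranged from -0.149 to 0.017 and the Trem2 mean from -0.246 to 0.11, and both turned in sign without replicate 2. Of the single spots of Ptprc, 2 that were not above the limit had a mean below 0 (-0.025 and -0.026). The cause was not tested. The other 6 genes kept the sign of their mean under all 11 alternatives run on gene means. Some means reached a smaller unadjusted p with an array left out (Trem2 0.016 and C1qb 0.044 without replicate 4, Tmem119 0.034 without replicate 3, P2ry12 0.032 without replicate 2), and Ptprc did with no dye term (0.040) and with its spot of largest dye bias (0.025). The smallest adjusted p among these was 0.453. For the fit with no dye term, the loess had already brought the dye contrast close to 0. That fit counts this contrast as error, so its p can be too small. Of 31 other genes above the limit that the naming rule gave from the context lists, 5 turned in sign without 1 array: Cx3cl1, Csf1, Il34, Tyrobp and Itgb2. The Csf1 mean also turned without normalization (-0.0033) and with median centring (-0.0045). A further 20 kept their sign but moved by over 1.5 times, and 6 stayed within 1.5 times. In a fit on 3 arrays the array alone in its dye orientation weighs as much as both others. No paired analysis was possible because the 4 arrays form 1 group and each already sets a cocaine mouse against a saline mouse. Without intensities, the signal over background behind each ratio is unknown.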
